A study of Mus musculus with 23 samples.

Results

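The proteasome is the protease complex that degrades ubiquitin-tagged proteins. Its subunits are encoded by genes named Psm. Of the 22619 named genes in the files, 49 had a name of Psm, a letter from a to g and a number. They comprised 19 genes of the core particle (Psma and Psmb), 20 of the regulatory particle (Psmc and Psmd) and 9 of activators, an inhibitor and assembly chaperones (Psme, Psmf and Psmg). The remaining gene, Psmc3ip, matched by name only. It encodes a meiotic recombination factor and lies on the opposite strand of Mlx, with which it overlaps. It was left out of all counts, which therefore cover 48 proteasome genes.

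The core particle is a barrel of stacked rings. The outer rings are made of alpha subunits, which gate the entry. The inner rings are made of beta subunits, of which Psmb5, Psmb6 and Psmb7 carry the proteolytic sites, while Psmb8, Psmb9 and Psmb10 replace them in the immunoproteasome. The regulatory particle binds ubiquitin chains, removes them, unfolds the substrate with a ring of ATPases (Psmc1 to Psmc6) and feeds it into the core. In mouse embryos, the ubiquitin-proteasome system degrades maternal proteins while the embryo takes over from stored maternal RNA.

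RNA-seq was performed on mouse embryos labelled B6D2F1 (C57BL/6xDBA/2), from oocytes injected at the germinal vesicle stage with siRNA, then matured in vitro and fertilized. The labels describe fertilization by incubation with sperm, whereas the study's methods describe injection of sperm from C57BL/6 males. The 23 libraries form 8 groups. At the 2-cell stage, labelled 36 hours post fertilization (hpf), there were 2 libraries of siEtv5 and 3 each of siMlx, siRfx1 and siCtrl, the control siRNA. At the late zygote stage, labelled 14 hpf, there were 3 libraries of each. The study's methods give later times than the labels for both stages. The control embryos thus shared the injection, maturation and culture. Etv5, Mlx and Rfx1 encode transcription factors, and each knockdown (KD) used a mix of siRNAs. Each library was made from lysed blastomeres freed of the zona pellucida, and the labels do not give the number of embryos behind it. The study's methods say that experiments were repeated, but no label ties a library to a separate collection, so the p-values measure only the spread between these libraries.

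Values are FPKM (fragments per kilobase of transcript and per unit of library size, as deposited) summed per gene and divided by 1 median-ratio factor per library. They are relative levels per length. Coverage along transcripts was uneven in many libraries, as given below, so levels of different genes can be compared only roughly. In such bulk libraries, fewer cells and less RNA per cell cannot be told apart. Reverse transcription started from oligo-dT, so the amount of an RNA and the length of its poly(A) tail cannot be told apart either. Aligned bases came to 119 to 174 Mb in the siRfx1 2-cell libraries, 404 to 967 Mb in the other 2-cell libraries and 484 to 991 Mb in zygotes. The siRfx1 2-cell libraries stood apart. Their replicates correlated at 0.679 to 0.71 across genes, against 0.85 to 0.974 in the other groups. Only 23.3% to 30.2% of the coverage of transcripts lay in the 5′ part before the midpoint of the transcript, against 35.6% to 47.1% in the other 2-cell libraries and 41.2% to 54.1% in zygotes. Summed oocyte markers were 397 to 457 FPKM in siCtrl 2-cell embryos, against 4411 to 5266 FPKM in siCtrl zygotes. Among markers of other cells that embryos could carry, cumulus and granulosa genes summed to 32.7 to 59.0 FPKM in siCtrl 2-cell embryos, against 5.96 to 8.69 FPKM in siCtrl zygotes. Of the 10 genes, 3 reached 1 FPKM in siCtrl 2-cell embryos and 1 did in siCtrl zygotes. Amh, Foxl2, Inha, Inhba and Ptx3 were listed at 0 in both. Sperm and spermatid markers summed to at most 3.5 FPKM in siCtrl 2-cell embryos, against 21.8 to 34.5 FPKM in siCtrl zygotes. Of the 8 genes, 1 reached 1 FPKM in siCtrl 2-cell embryos and 2 did in siCtrl zygotes, with Prm1, Tnp2, Akap4 and Spem1 listed at 0 in both. Immune cell markers summed to 6.85 to 9.79 FPKM in siCtrl 2-cell embryos, against 3.59 to 6.3 FPKM in siCtrl zygotes. Of the 7 genes, 4 reached 1 FPKM in siCtrl 2-cell embryos and 1 did in siCtrl zygotes, with Cd3e listed at 0 in both. The part of these cells in the results was not tested.

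The first comparison asked how the proteasome genes differed between stages in control embryos. Core subunit RNAs were mostly higher in siCtrl 2-cell embryos than in siCtrl zygotes. Activator, inhibitor and assembly factor RNAs went both ways. Of the 42 proteasome genes that reached a mean of 1 FPKM, 21 rose and 9 fell at an adjusted p under 0.05 (limma on log2 of FPKM + 1, Benjamini-Hochberg over all genes tested). Of all 10769 genes tested, 39% rose and 34.2% fell. Of the 15 core genes tested, 10 rose and 3 fell. Of the 20 genes of the regulatory particle, 9 rose and 3 fell. Of the 7 activators, inhibitor and assembly factors, 2 rose and 3 fell. The median log2 difference was 0.59 over the 42 genes, and 2.1 in the core, 0.58 in the regulatory particle and −1.91 in the activators and assembly factors, against 0.11 over all genes tested. With a fold change above 2, 18 rose and 8 fell (background 35.3% and 29.1%). The share of coverage in the 5′ part was 36.8% to 37.9% in siCtrl 2-cell embryos, against 41.2% to 47.2% in siCtrl zygotes, and its part in these differences was not tested. When the trend with transcript length was removed, the 28 calls split into 15 that rose and 13 that fell. Of all 10769 genes tested, 3846 then rose and 4024 fell.

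**Figure D1:**
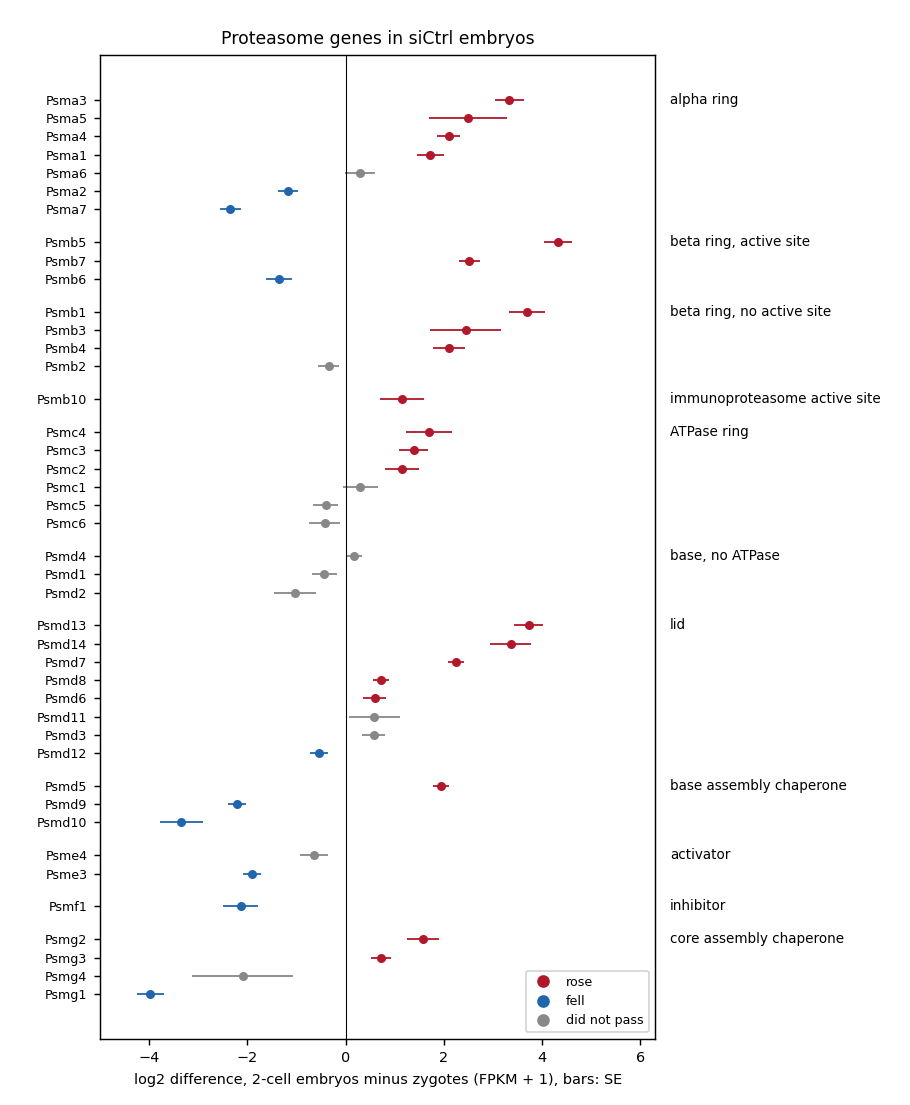
Log2 difference between siCtrl 2-cell embryos and siCtrl zygotes for the 42 proteasome genes tested, grouped by role, with the standard error (n = 3 libraries each). Red points rose, blue points fell and grey points did not pass; Psmb5 is the highest at 4.33 and Psmg1 the lowest at −3.97.

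The promoter windows of the genes at both ends of this range are given first, together with that of Psmd4, the gene that passed after Rfx1 KD. Each covers 250 bases before and 50 bases after the transcript start in mm9, 5′ to 3′. They lie at chr14:55236783-55237082 (minus strand, Psmb5), chr7:148068043-148068342 (plus strand, Psmd13), chr16:96212461-96212760 (minus strand, Psmg1), chrX:137491201-137491500 (minus strand, Psmd10) and chr3:94846418-94846717 (minus strand, Psmd4). Capitals mark matches on either strand. The letters searched for were the E-box CACGTG bound by Mlx-type factors, GTTGCC, the ETS core CCGGAAGT, the antioxidant element TGACNNNGC and the CCAAT box of NF-Y. GTTGCC is a half-site of the X-box of Rfx factors, and whole X-boxes were not searched for. The Nfe2l1 protein acts on proteasome genes through the antioxidant element.
Psmb5: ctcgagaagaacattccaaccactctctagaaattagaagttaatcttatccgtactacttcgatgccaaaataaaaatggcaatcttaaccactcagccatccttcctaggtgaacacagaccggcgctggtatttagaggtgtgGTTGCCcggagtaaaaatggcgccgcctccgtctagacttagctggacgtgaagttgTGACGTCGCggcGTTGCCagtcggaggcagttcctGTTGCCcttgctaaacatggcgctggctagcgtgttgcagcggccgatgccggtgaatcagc
Psmd13: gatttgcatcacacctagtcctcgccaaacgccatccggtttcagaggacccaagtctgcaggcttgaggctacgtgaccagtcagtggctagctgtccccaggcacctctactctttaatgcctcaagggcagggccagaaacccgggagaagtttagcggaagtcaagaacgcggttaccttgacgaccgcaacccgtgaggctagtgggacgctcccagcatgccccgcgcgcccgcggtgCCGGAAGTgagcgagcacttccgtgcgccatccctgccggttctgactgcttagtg
Psmg1: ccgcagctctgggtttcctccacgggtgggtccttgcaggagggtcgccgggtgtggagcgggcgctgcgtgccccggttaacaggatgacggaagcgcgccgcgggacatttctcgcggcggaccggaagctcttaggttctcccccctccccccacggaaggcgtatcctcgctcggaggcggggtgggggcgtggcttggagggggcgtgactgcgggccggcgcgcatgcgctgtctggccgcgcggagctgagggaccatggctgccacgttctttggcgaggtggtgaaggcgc
Psmd10: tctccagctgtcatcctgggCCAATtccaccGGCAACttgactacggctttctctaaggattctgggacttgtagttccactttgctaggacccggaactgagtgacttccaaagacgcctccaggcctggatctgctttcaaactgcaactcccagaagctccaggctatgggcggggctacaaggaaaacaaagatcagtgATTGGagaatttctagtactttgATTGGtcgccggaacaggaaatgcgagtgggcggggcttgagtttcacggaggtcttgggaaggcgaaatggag
Psmd4: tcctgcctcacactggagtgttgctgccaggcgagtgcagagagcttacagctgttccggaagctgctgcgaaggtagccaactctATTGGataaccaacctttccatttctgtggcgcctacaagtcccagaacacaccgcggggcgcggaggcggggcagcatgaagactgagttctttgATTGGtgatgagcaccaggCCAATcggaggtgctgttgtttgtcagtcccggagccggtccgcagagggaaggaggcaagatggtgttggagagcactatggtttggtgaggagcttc

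The Psmb5 window held 3 X-box half-sites and 1 antioxidant element. The Psmd13 window held 1 ETS core, 6 bases before the start. The Psmd10 window held 3 CCAAT boxes and 1 X-box half-site, and the Psmd4 window 3 CCAAT boxes. None of these letters occurred in the Psmg1 window. Over the 48 proteasome promoters, the ETS core was found in 10, or 20.8%, against 5.14% of 22560 promoters of all genes. It was present in 5 of the 21 promoters of genes that rose and in 2 of the 9 of genes that fell. The X-box half-site was found in 6 of the 48 windows, or 12.5%, against 11.7% of all promoters. The E-box was also found in 6, or 12.5%, against 7.85%. The antioxidant element was found in 8, or 16.7%, against 12.9%, and the CCAAT box in 14, or 29.2%, against 38.0%. A match is a description of the letters and not a site.

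Among the active-site subunits, Psmb5 (chymotrypsin-like site) had 112, 143 and 155 FPKM in siCtrl 2-cell embryos, against 7.10, 3.47 and 7.69 FPKM in siCtrl zygotes. All 2-cell libraries were far above all zygotes (log2 difference 4.33 ± 0.29, SE, adjusted p = 7.81e-06). Psmb5 overlaps Mir686 on the same strand. Psmb7 (trypsin-like site) had 27.0, 25.2 and 19.7 FPKM in siCtrl 2-cell embryos, against 3.24, 3.03 and 3.72 FPKM in siCtrl zygotes. It rose by 2.52 ± 0.22 on the log2 scale (adjusted p = 2.42e-05). Psmb6 (caspase-like site) moved the other way, with 21.0, 19.7 and 19.7 FPKM in siCtrl 2-cell embryos, against 36.1, 57.1 and 73.8 FPKM in siCtrl zygotes. It fell by 1.37 on the log2 scale (SE 0.26, adjusted p = 0.00186). In siCtrl zygotes, Psmb6 was thus the most abundant of these 3 RNAs, and in siCtrl 2-cell embryos Psmb5 was.

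Of the beta subunits without an active site, Psmb1 had 69.5, 71.98 and 67.2 FPKM in siCtrl 2-cell embryos, against 7.32, 5.58 and 1.95 FPKM in siCtrl zygotes. It rose by 3.69 ± 0.37 (adjusted p = 4.91e-05), with no overlap between the groups. Psmb4 had 75.3, 66.3 and 41.4 FPKM in siCtrl 2-cell embryos, against 8.58, 13.7 and 18.5 FPKM in siCtrl zygotes, a rise of 2.1. Psmb3 had 8.93, 0.433 and 10.3 FPKM in siCtrl 2-cell embryos and was listed at 0 in all siCtrl zygotes. The exception was Psmb2, which had 61.1, 44.9 and 73.6 FPKM in siCtrl 2-cell embryos, against 65.8, 76.6 and 82.6 FPKM in siCtrl zygotes and did not pass.

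In the alpha ring, 4 of 7 genes rose and 2 fell. Psma3 had 12.6, 9.65 and 10.98 FPKM in siCtrl 2-cell embryos, against 0, 0.706 and 0 FPKM in siCtrl zygotes. Psma5 had 27.1, 22.5 and 20.9 FPKM in siCtrl 2-cell embryos, against 8.72, 7.45 and 0 FPKM in siCtrl zygotes. Psma4 and Psma1 rose by 2.1 and 1.72. Psma4 overlaps AY074887 on the opposite strand, so its reads may include those of that gene. Psma7 had 9.65, 13.5 and 12.3 FPKM in siCtrl 2-cell embryos, against 53.4, 64.7 and 74.6 FPKM in siCtrl zygotes. It fell by 2.35 (SE 0.21, adjusted p = 2.97e-05), and all zygotes lay above all 2-cell embryos. Psma2 fell by 1.18 and Psma6 did not pass. The subunits of 1 ring therefore did not move together.

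In the lid of the regulatory particle, 5 of 8 genes rose and 1 fell. Psmd14, the deubiquitinase that cuts the ubiquitin chain from the substrate, had 23.1, 26.1 and 24.5 FPKM in siCtrl 2-cell embryos, against 0.833, 0.662 and 4.04 FPKM in siCtrl zygotes (log2 difference 3.36 ± 0.42, adjusted p = 0.000163). Psmd7, its partner in the lid, had 153, 198 and 167 FPKM in siCtrl 2-cell embryos, against 33.9, 34.2 and 38.9 FPKM in siCtrl zygotes (2.24 ± 0.16, adjusted p = 1.17e-05). Psmd13 had 10.6, 11.4 and 19.2 FPKM in siCtrl 2-cell embryos, against 0, 0 and 0.259 FPKM in siCtrl zygotes. All 3 were without overlap, as were 40.3% of all 10769 genes tested that lay higher in 2-cell embryos and 36.2% that lay lower. The transcripts of Psmd13 and Psma3 were near or at 0 in zygotes. Psmd8 and Psmd6 rose by 0.72 and 0.59, and Psmd12 fell by 0.55. Over alternatives of the processing, Psmd6 kept its call in 7 and lost it in 8. Psmd12 kept its call in 8 and lost it in 7, and Psmd8 kept its call in 13 and lost it in 2.

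In the ATPase ring, 3 of 6 genes rose. Psmc2, Psmc3 and Psmc4 did so by 1.15, 1.39 and 1.69, and the remaining 3 ATPases did not pass, at −0.42 to 0.30. The Psmc2 call was kept in 9 alternatives of the processing and lost in 6. None of the ubiquitin receptors and scaffolds of the base with a Psm name (Psmd1, Psmd2 and Psmd4) passed. Psmd4, a ubiquitin receptor, had 48.3, 48.8 and 43.4 FPKM in siCtrl 2-cell embryos, against 40.4, 44.8 and 38.9 FPKM in siCtrl zygotes.

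The assembly chaperones included the genes that fell most. Psmg1, which pairs with Psmg2 to build the alpha ring, had 1.56, 1.73 and 0.782 FPKM in siCtrl 2-cell embryos, against 28.5, 36.1 and 43.1 FPKM in siCtrl zygotes. It fell by 3.97 (SE 0.26, adjusted p = 7.88e-06). Psmg2 was listed at 0 in all siCtrl zygotes and had 3.38, 1.79 and 1.14 FPKM in siCtrl 2-cell embryos. Psmd10, a chaperone of the base also known as gankyrin, had 0, 1.19 and 2.44 FPKM in siCtrl 2-cell embryos, against 21.3, 15.5 and 20.7 FPKM in siCtrl zygotes. Psmd9, another base chaperone, had 19.1, 17.9 and 14.3 FPKM in siCtrl 2-cell embryos, against 75.1, 88.2 and 86.0 FPKM in siCtrl zygotes, a fall of 2.22. Psmd5, the remaining base chaperone, went the other way, with 111, 94.6 and 104 FPKM in siCtrl 2-cell embryos, against 29.0, 24.6 and 25.5 FPKM in siCtrl zygotes (1.93 ± 0.16, adjusted p = 2.08e-05). Psmg3, which pairs with Psmg4, rose by 0.72 (adjusted p = 0.0136), but lay at −0.07 when the length trend was removed. Psmg4 lay at −2.1 and did not pass (adjusted p = 0.0962).

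Among the activators, Psme3 (PA28 gamma, a nuclear activator that works without ubiquitin) had the highest mean of all proteasome genes over the 23 libraries. It had 56.6, 54.4 and 37.0 FPKM in siCtrl 2-cell embryos, against 189, 186 and 179 FPKM in siCtrl zygotes. It fell by 1.91 (SE 0.19, adjusted p = 5.28e-05). Psmf1, an inhibitor of the core, had 2.59, 6.02 and 8.70 FPKM in siCtrl 2-cell embryos, against 25.5, 26.9 and 27.2 FPKM in siCtrl zygotes, a fall of 2.14 (SE 0.35, adjusted p = 0.000793). Psme4 (PA200, known in mouse testis for a role in histone removal) had 17.9, 8.59 and 15.6 FPKM in siCtrl 2-cell embryos, against 24.8, 19.1 and 20.9 FPKM in siCtrl zygotes and did not pass.

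**Figure D2:**
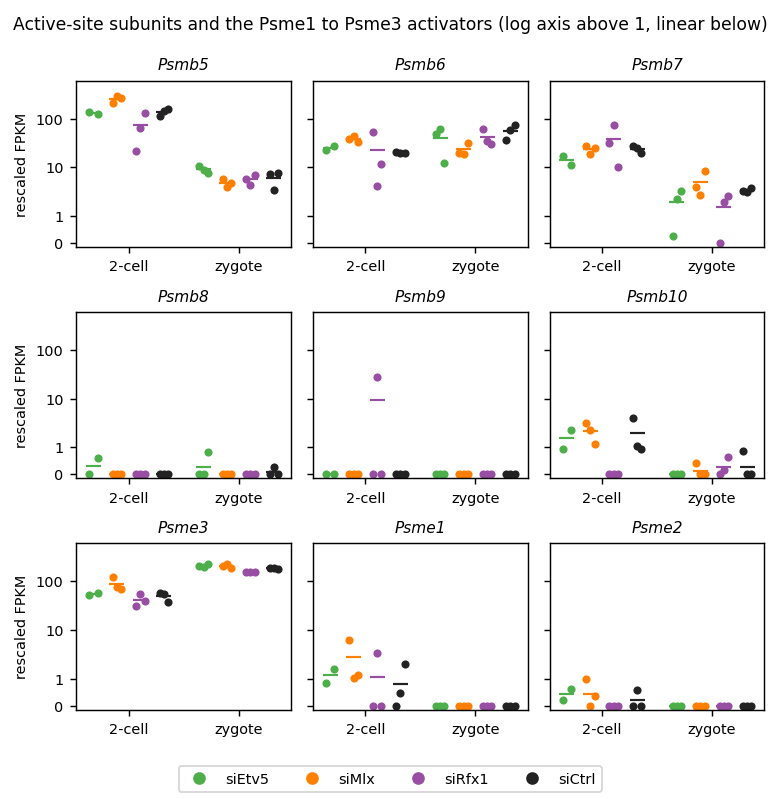
Rescaled FPKM in every library of the constitutive active-site subunits (top row), their immunoproteasome counterparts (middle row) and the activators Psme3, Psme1 and Psme2 (bottom row). Points are libraries and short lines are group means; the axis is linear below 1 and logarithmic above, Psmb8 stays below 1, Psmb10 reaches 3.99 and Psmb9 is above 0 only in 1 siRfx1 2-cell library, at 27.9.

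The immunoproteasome subunits and their interferon-induced activator had low levels in most libraries. Psmb8 was listed above 0 in 3 of 23 libraries, with a highest value of 0.816 FPKM. Psmb9 was listed above 0 in 1 library, at 27.9 FPKM in siRfx1 2-cell replicate 2, while replicates 1 and 3 were at 0. Psmb10 had 3.99, 1.06 and 0.930 FPKM in siCtrl 2-cell embryos, against 0.854, 0 and 0 FPKM in siCtrl zygotes. Although Psmb10 passed (adjusted p = 0.0483), it did so at a level below those of its constitutive counterparts. In siMlx 2-cell embryos Psmb10 had 3.17, 2.30 and 1.16 FPKM, and it also passed there against siMlx zygotes (adjusted p = 0.00623). Psme1 and Psme2, the subunits of the interferon-induced cap, were listed at 0 in all 12 zygote libraries. Psme1 had 0, 0.471 and 1.98 FPKM and Psme2 0, 0.585 and 0 FPKM in siCtrl 2-cell embryos. In siMlx 2-cell embryos Psme1 had 6.201, 1.04 and 1.22 FPKM and passed against siMlx zygotes (adjusted p = 0.0151), with no fold given since all zygotes were at 0. The reads of Psme1 cannot be told apart from those of Emc9, which overlaps it on the opposite strand. Psmb11, the thymus-specific subunit, reached at most 2.00 FPKM. Psma8, the testis form of Psma7, had the lowest mean and was above 0 in 3 libraries, with a highest value of 0.433 FPKM.

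The sum over the 48 genes was 1289 to 1408 FPKM in siCtrl 2-cell embryos, against 994 to 1117 FPKM in siCtrl zygotes. As a share of all FPKM in a library this was 0.441% to 0.462% in siCtrl 2-cell embryos, against 0.268% to 0.285% in siCtrl zygotes. The ranges did not overlap. In siCtrl 2-cell embryos, 3 to 7 of the 48 genes were listed at 0, against 8 to 10 in siCtrl zygotes. In siRfx1 2-cell embryos, 14 to 15 were listed at 0. Exact zeros in these files can be failed estimates.

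The same stage comparison was available in each KD, with no library shared between the siRNA groups. In siEtv5, 16 of 41 genes rose and 7 fell (background 33.9% and 29.9%). In siMlx, 16 of 42 rose and 9 fell (34.3% and 33.6%). In siRfx1, 9 of 40 rose and 9 fell (19.6% and 28.1%). The median log2 difference was 0.46 in siEtv5, 0.66 in siMlx and 0.40 in siRfx1, against 0.04, 0.01 and −0.12 over all genes tested. The siEtv5 count depended on its 2 libraries at the 2-cell stage. It fell without either of them, and so did the count over all genes, in fits that left 1 library in that group. The median over all genes tested was then −0.081 without replicate 1 and −0.056 without replicate 2. Of the 38 proteasome genes tested in all 4 siRNA groups, 15.8% rose in all and 15.8% fell in all, against 16.6% and 18.4% of all 9318 genes tested in all 4. Those that rose numbered 6, namely Psmb1, Psmb5, Psmb7, Psmd7, Psmd13 and Psmd14. Those that fell also numbered 6, namely Psma7, Psmd9, Psmd10, Psme3, Psmf1 and Psmg1. In siRfx1, the Psma7 and Psmd9 calls were lost without any 1 of the siRfx1 zygote libraries (limma, adjusted p 0.0695 to 0.0822). Psmb7 was lost there without zygote replicate 1 and Psmb5 without replicate 2 (0.0559 and 0.0527). With FPKM as deposited, Psmf1 in siEtv5 and Psme3 in siMlx were lost (0.0924 and 0.0995). No proteasome gene rose in 1 group and fell in another, as 1.72% of all genes did. Of the 44 genes tested in at least 1 group, 6 passed in none, and the share of all genes that did so was not counted.

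**Figure D3:**
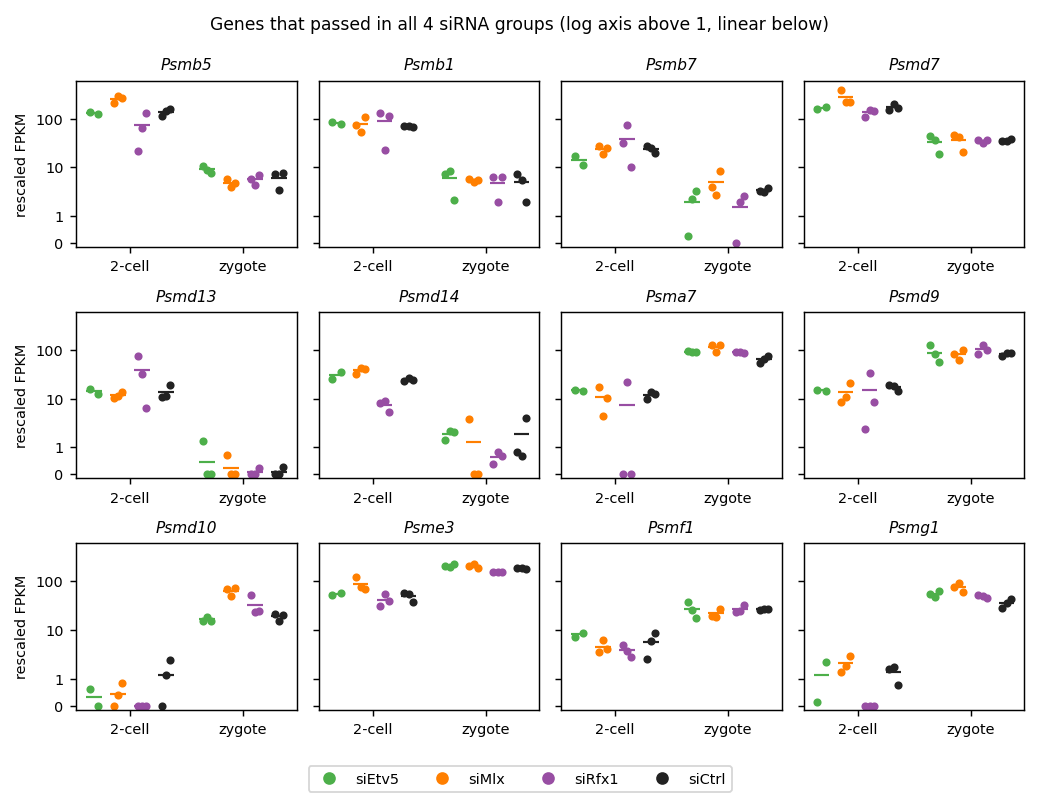
Rescaled FPKM in every library for the 12 genes that passed in all 4 siRNA groups, with 2-cell embryos left of zygotes. Points are libraries and short lines are group means; the axis is linear below 1 and logarithmic above, Psmb5 to Psmd14 are higher in 2-cell embryos and Psma7 to Psmg1 are higher in zygotes.

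Psmb5 had 138 and 123 FPKM in siEtv5 2-cell embryos, against 10.7, 8.76 and 7.71 FPKM in siEtv5 zygotes. It had 205, 292 and 259 FPKM in siMlx 2-cell embryos, against 5.61, 3.93 and 4.79 FPKM in siMlx zygotes. In siRfx1 2-cell embryos it had 21.2, 63.0 and 133 FPKM, against 5.78, 4.32 and 6.81 FPKM in siRfx1 zygotes. The log2 differences ranged from 3.13 to 5.45 over the 4 siRNA groups, and every 2-cell library was above every zygote.

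Psmb1 ranged from 3.56 to 3.74 over the 4 groups, the narrowest spread among those that rose in all. Psmd13 ranged from 3.43 to 4.65, Psmd14 from 2.35 to 4.55, Psmb7 from 2.1 to 3.77 and Psmd7 from 1.89 to 2.92. Among those that fell, Psmg1 ranged from −5.66 to −3.97 and Psmd10 from −5.55 to −3.35. Both were listed at 0 in all 3 siRfx1 2-cell libraries, so their fold there has no fixed size. Psma7 ranged from −4.99 to −2.35, Psmd9 from −3.30 to −2.22, Psmf1 from −2.53 to −1.54 and Psme3 from −1.91 to −1.24. Psma7 in siRfx1 2-cell embryos had 0, 21.9 and 0 FPKM, against 92.3, 90.7 and 85.5 FPKM in siRfx1 zygotes.

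Several genes passed in fewer groups. Psmb4 had 279, 174 and 93.7 FPKM in siMlx 2-cell embryos, against 0, 27.3 and 17.2 FPKM in siMlx zygotes. In siRfx1 2-cell embryos it had 3.90, 27.3 and 6.52 FPKM, against 3.78, 12.5 and 14.2 FPKM in siRfx1 zygotes, which overlap. Psma5 had 35.7 and 21.2 FPKM in siEtv5 2-cell embryos, against 0.658, 0 and 2.30 FPKM in siEtv5 zygotes. Psmg4 had 0, 0 and 8.97 FPKM in siRfx1 2-cell embryos, against 31.9, 27.8 and 29.4 FPKM in siRfx1 zygotes and fell there, with an adjusted p of 0.0164.

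Psmc3ip, the gene matched by name, had 18.1, 26.5 and 29.1 FPKM in siCtrl 2-cell embryos, against 0.763, 1.28 and 3.40 FPKM in siCtrl zygotes. It rose by 3.27 ± 0.37 (adjusted p = 0.000102). Without strand, its reads cannot be told apart from those of Mlx, its overlapping neighbour and 1 of the siRNA targets.

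The second comparison asked whether proteasome RNAs differed between KD and siCtrl embryos of the same stage. The 3 comparisons at a stage share the siCtrl libraries. The targets were checked first. Etv5 had 6.43 and 4.01 FPKM in siEtv5 2-cell embryos, against 36.6, 33.0 and 32.6 FPKM in siCtrl 2-cell embryos, and fell (adjusted p = 0.0163). In zygotes Etv5 had 0.0825, 0 and 0 FPKM in siEtv5, against 1.95, 0.688 and 1.19 FPKM in siCtrl. Mlx had 0.597, 0 and 0.601 FPKM in siMlx zygotes, against 1.79, 3.68 and 4.22 FPKM in siCtrl zygotes, without overlap (adjusted p = 0.0603). In 2-cell embryos Mlx had 0.907, 1.86 and 3.12 FPKM in siMlx, against 1.80, 3.34 and 2.73 FPKM in siCtrl, which overlap. Rfx1 had 1.53, 1.54 and 1.63 FPKM in siRfx1 2-cell embryos, against 7.92, 6.56 and 5.93 FPKM in siCtrl 2-cell embryos (adjusted p = 0.120). In zygotes Rfx1 had 0.548, 0.163 and 0.524 FPKM in siRfx1, against 2.96, 3.30 and 3.49 FPKM in siCtrl (adjusted p = 0.174). Each target was below siCtrl in every library except Mlx at the 2-cell stage.

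Few proteasome genes differed between KD and siCtrl. The sum over the 48 genes was 1356 to 1358 FPKM in siEtv5, 1820 to 2537 FPKM in siMlx and 1316 to 1722 FPKM in siRfx1 2-cell embryos, against 1289 to 1408 FPKM in siCtrl 2-cell embryos. It was 1204 to 1301 FPKM in siEtv5, 1330 to 1575 FPKM in siMlx and 1186 to 1225 FPKM in siRfx1 zygotes, against 994 to 1117 FPKM in siCtrl zygotes. The siMlx sums lay above siCtrl at both stages, and all KD zygotes lay above siCtrl zygotes, given here as a description with no test. As a share of all FPKM in a library, the sum was 0.481% to 0.483% in siEtv5, 0.556% to 0.599% in siMlx and 0.394% to 0.526% in siRfx1 2-cell embryos, against 0.441% to 0.462% in siCtrl 2-cell embryos, and the shares of siEtv5, siMlx and siRfx1 zygotes overlapped those of siCtrl zygotes. At the 2-cell stage, 1 of 42 passed after Etv5 KD (background 0.134% higher, 0.191% lower), none of 42 after Mlx KD (0.0689% and 0.246%) and 1 of 40 after Rfx1 KD (1.52% and 1.57%). In zygotes, none of 36 passed after Etv5 KD, when no gene of 9121 did, 4 of 37 after Mlx KD (1.07% and 0.434%) and none of 38 after Rfx1 KD (0.044% and 0.011%). By limma at an unadjusted p under 0.05, 3 were higher and 1 lower in Etv5 KD zygotes (background 7.92% and 4.57%), 9 higher and 1 lower in Rfx1 KD zygotes (8.9% and 5.81%), and 11 higher and 1 lower in Mlx KD 2-cell embryos (8.53% and 10.7%). With voom these 3 comparisons also gave 0 calls. With 1 library left out they gave 1 call without siEtv5 zygote replicate 2 and 1 without siCtrl zygote replicate 2 in the Rfx1 comparison. They gave 1 or 3 without siMlx 2-cell replicate 1 or 3, and otherwise 0. Over all genes, these 4 fits gave 180 higher and 37 lower of 9161, 6 and 2 of 9132, 19 and 62 of 10205, and 277 and 207 of 10164. A difference that did not pass was not detectable with these libraries, which does not show that it was absent.

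**Figure D4:**
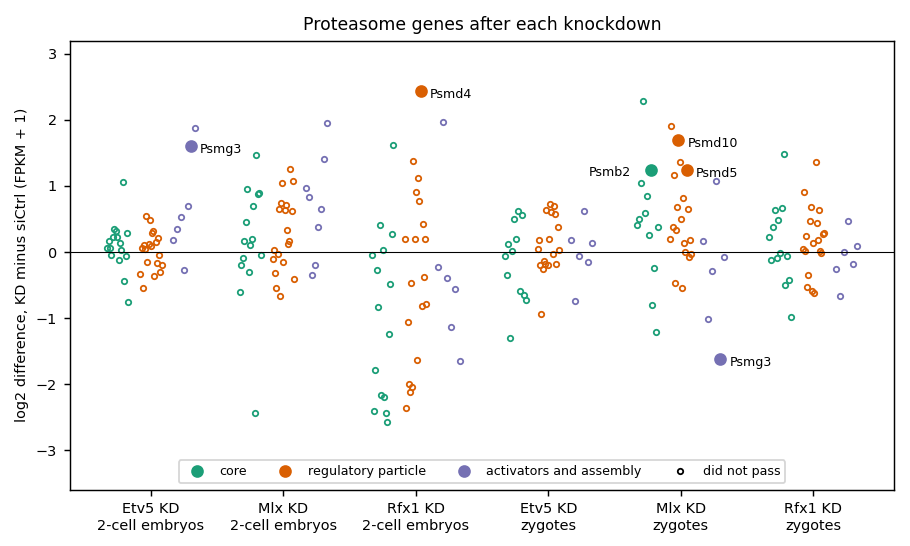
Log2 difference between KD and siCtrl embryos for each proteasome gene tested, coloured by class. Filled, named points passed at an adjusted p under 0.05 and open points did not; the 6 named points are Psmg3 in Etv5 KD 2-cell embryos, Psmd4 in Rfx1 KD 2-cell embryos, and Psmb2, Psmd10, Psmd5 and Psmg3 in Mlx KD zygotes.

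Psmd4, which encodes a ubiquitin receptor of the base, was higher after Rfx1 KD. It had 263, 233 and 283 FPKM in siRfx1 2-cell embryos, against 48.3, 48.8 and 43.4 FPKM in siCtrl 2-cell embryos. It rose by 2.44 ± 0.26 (adjusted p = 0.0113), with no overlap, while the median of all genes tested was −0.39 and that of the proteasome genes −0.48. In siRfx1 zygotes Psmd4 had 33.9, 53.0 and 57.1 FPKM, against 40.4, 44.8 and 38.9 FPKM in siCtrl zygotes, which overlap. The call was lost without siCtrl replicate 1, 2 or 3 (limma, adjusted p = 0.121, 0.114 and 0.0908). In these fits no gene of all 9940, 9926 and 9941 tested passed in either direction. Without siRfx1 replicate 2, and likewise without replicate 3, 3 proteasome genes passed. Over all genes, 269 of 10143 were higher and 320 lower without replicate 2. Without replicate 3, 253 of 10117 were higher and 366 lower. With FPKM as deposited, 1 proteasome gene was higher and 3 were lower, when 149 of all 10497 genes were higher and 1195 lower. Beside this result stand the low depth and 5′ coverage of the siRfx1 2-cell libraries and their oocyte markers, which summed to 1282 to 1789 FPKM in siRfx1 2-cell embryos, against 397 to 457 FPKM in siCtrl 2-cell embryos. Their part in it was not tested. Its promoter window is printed above.

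Psmg3, which builds the alpha ring together with Psmg4, was the only gene that passed in more than 1 KD. It had 33.7 and 36.9 FPKM in siEtv5 2-cell embryos, against 10.2, 10.1 and 12.7 FPKM in siCtrl 2-cell embryos (log2 difference 1.61 ± 0.23, adjusted p = 0.0473). In siMlx 2-cell embryos it had 25.3, 31.4 and 36.8 FPKM, also above all siCtrl libraries, but did not pass (adjusted p = 0.0794). In siMlx zygotes it had 2.37, 0.669 and 1.32 FPKM, against 6.59, 5.91 and 6.26 FPKM in siCtrl zygotes, and fell by 1.62 (SE 0.30, adjusted p = 0.0418). The Etv5 KD call was lost without any 1 of its 5 libraries. Without siCtrl replicate 1, 2 and 3, the adjusted p was 0.140, 0.112 and 0.0576 (limma). Over all genes, these fits gave 1 higher and 0 lower, 10 and 6, and 11 and 9, against 14 and 20 in the full fit. Without siEtv5 replicate 1 and 2, which left 1 siEtv5 library, the log2 difference of Psmg3 was 1.67 and 1.54. Summed 2-cell markers were 1965 to 2287 FPKM in siEtv5 2-cell embryos, against 572 to 951 FPKM in siCtrl 2-cell embryos, and oocyte markers 628 to 712 FPKM in siEtv5, against 397 to 457 FPKM in siCtrl. Their part in the result was not tested.

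In Mlx KD zygotes, Psmd10 had 70.3, 50.8 and 72.4 FPKM, against 21.3, 15.5 and 20.7 FPKM in siCtrl zygotes (1.69 ± 0.23, adjusted p = 0.0185). Psmd5 had 55.9, 79.7 and 58.2 FPKM in siMlx zygotes, against 29.0, 24.6 and 25.5 FPKM in siCtrl zygotes (1.25 ± 0.21, adjusted p = 0.0344). Psmb2 had 179, 143 and 218 FPKM in siMlx zygotes, against 65.8, 76.6 and 82.6 FPKM in siCtrl zygotes (1.24 ± 0.22, adjusted p = 0.0391). None of the 4 genes that passed overlapped between the groups. Of all 9212 genes tested, 17.3% lay higher and 14.3% lower in siMlx zygotes without overlap. The median of the 37 genes tested was 0.37, against 0.08 over all genes tested. Summed oocyte markers moved with these rises, at 8369 to 12972 FPKM in siMlx zygotes, against 4411 to 5266 FPKM in siCtrl zygotes. Summed 2-cell markers were 103 to 153 FPKM in siMlx zygotes, against 45.2 to 96.3 FPKM in siCtrl zygotes, and the share of 5′ coverage was 51.0% to 54.1% in siMlx, against 41.2% to 47.2% in siCtrl. The part of these in the result was not tested. Of the 4 calls, none was left without any 1 of the siCtrl replicates or without siMlx replicate 1, and 2 passed without siMlx replicate 3. Over all genes, 18 were higher and 5 lower of 9175 without siCtrl replicate 1. It was 7 and 4 of 9246 without siCtrl replicate 2, and 3 and 3 of 9251 without replicate 3. Without siMlx replicate 1 it was 0 and 4 of 9169, and without replicate 3, 71 and 34 of 9167. Without siMlx replicate 2, 10 proteasome genes passed, when 406 of all 9227 genes tested were higher and 157 lower. When the length trend was removed, 1 was higher and 1 lower.

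**Figure D5:**
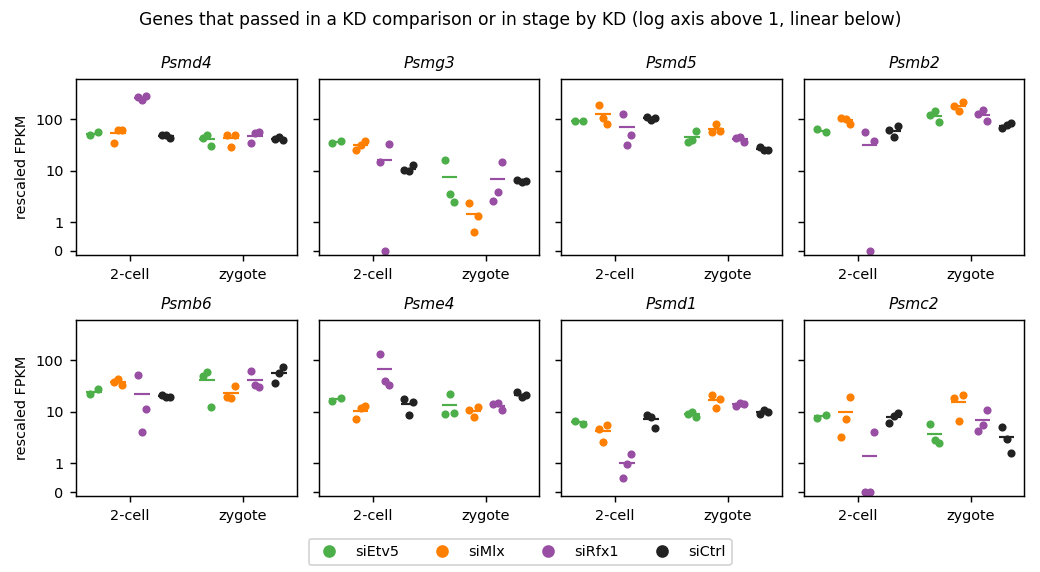
Rescaled FPKM in every library for 8 genes that passed in a KD comparison or in the comparison of stage differences, with 2-cell embryos left of zygotes and siCtrl last within a stage. Points are libraries and short lines are group means; the axis is linear below 1 and logarithmic above, and Psmd4 in siRfx1 2-cell embryos stands at 233 to 283.

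The last comparison asked whether the stage difference itself differed between KD and siCtrl. After Etv5 KD, none of 41 genes passed (background 0.102% higher, 0.232% lower), with 1 higher and 1 lower at an unadjusted p under 0.05 by limma (background 8.54% and 9.58%) and 0 calls with voom. Without siEtv5 zygote replicate 1, 1 gene passed, when 19 of all 10827 genes tested were higher and 39 lower. After Mlx KD, 2 of 42 passed, both higher (0.196% and 1.03%). After Rfx1 KD, 2 of 41 were higher and 3 lower (3.15% and 6.8%).

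After Mlx KD, the stage difference of Psmg3 was larger by 3.04 ± 0.40 on the log2 scale than that of siCtrl (adjusted p = 0.00942), from the values given above. Psmb6 had 37.5, 44.2 and 33.3 FPKM in siMlx 2-cell embryos, against 19.7, 18.4 and 31.6 FPKM in siMlx zygotes. In siCtrl embryos it was lower at the 2-cell stage, and its stage difference was larger by 2.1 ± 0.42 (adjusted p = 0.0312). The Psmb6 call was lost without siCtrl zygote replicate 2 or 3 (adjusted p = 0.0954 and 0.0990), siMlx zygote replicate 1 or 2 (0.0962 and 0.0562), siCtrl 2-cell replicate 1, 2 or 3 (0.0635, 0.0603 and 0.0672) or siMlx 2-cell replicate 2 (0.0693).

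After Rfx1 KD, the stage difference of Psmd4 was larger by 2.26 ± 0.34 (adjusted p = 0.00348). Psme4 had 131, 39.3 and 32.7 FPKM in siRfx1 2-cell embryos, against 14.1, 14.7 and 11.1 FPKM in siRfx1 zygotes, and its stage difference was larger by 2.63 ± 0.67 (adjusted p = 0.0325). Psmd1, the scaffold of the base, had 0.493, 0.996 and 1.52 FPKM in siRfx1 2-cell embryos, against 13.3, 14.7 and 14.4 FPKM in siRfx1 zygotes. Its stage difference was −2.51 ± 0.44 relative to siCtrl (adjusted p = 0.00643), where it had 8.74, 8.11 and 4.95 FPKM in 2-cell embryos, against 8.94, 10.9 and 10.01 FPKM in zygotes. Psmc2, an ATPase, had 0, 0 and 4.15 FPKM in siRfx1 2-cell embryos, against 4.34, 5.60 and 11.02 FPKM in siRfx1 zygotes (−3.27 ± 0.87, adjusted p = 0.0379). Psmg1 was listed at 0 in all siRfx1 2-cell libraries, so its fitted difference of −1.68 (adjusted p = 0.0280) depends on the pseudocount. Psmd1 and Psmd4 passed in all 20 alternatives, and Psmc2, Psme4 and Psmg1 did not. The count was 2 to 9 with 1 library left out. It was 2 without any 1 of the 6 zygote libraries or without siCtrl 2-cell replicate 2, and 3 without siCtrl 2-cell replicate 1 or 3. Over all genes, those fits gave 190 to 255 higher and 295 to 500 lower, against 338 and 731 in the full fit. Without siRfx1 2-cell replicate 1 or 2 it was 8 or 9. Over all genes, 661 of 10689 were higher and 1268 lower without replicate 1. Without replicate 2, 720 of 10712 were higher and 1511 lower.

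Genes that work with the proteasome were described from lists of genes. The lists were chosen with earlier results known. In siCtrl 2-cell embryos against siCtrl zygotes, 5 of 15 proteasome partners outside the Psm names rose and 5 fell, where 39% of all genes tested rose and 34.2% fell. Adrm1, a ubiquitin receptor of the proteasome, rose by 1.93 (80.9 FPKM in siCtrl 2-cell embryos, against 20.6 FPKM in siCtrl zygotes, means of 3). Zfand2a, a stress-induced partner, rose by 2.88, and Akirin2, which brings proteasomes into the nucleus, fell by 1.98 to 92.2 FPKM, against 362 FPKM in siCtrl zygotes. Of 11 regulators of proteasome gene transcription, 3 rose and 4 fell. Mafk, a small Maf partner of Nfe2l1, rose by 4.42, while Ngly1, the deglycosylase that activates Nfe2l1, fell by 3.19. Nfyb rose by 3.77 and Nfya, a subunit of the same CCAAT-binding complex, fell by 2.24.

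Rps27a, which encodes ubiquitin fused to a ribosomal protein, rose by 6.11. Of 10 genes of p97, the unfoldase upstream of the proteasome, and its cofactors, 4 rose and 2 fell. Vcp, which encodes p97, rose by 0.97 and its cofactor Ubxn1 by 4.71. Of 9 genes of the COP9 signalosome, a complex related to the proteasome lid, 4 rose and 2 fell, with Cops6 at 3.79 and Cops8 at −0.97. Of 7 genes of the CCT chaperonin, 4 rose and none fell, with Cct6a at 4.84. Of 5 MHC class I and interferon genes, 4 rose and 1 fell. For these lists too, the share of all genes tested was 39% that rose and 34.2% that fell. B2m, the light chain of MHC class I, had a mean of 110 FPKM in siCtrl 2-cell embryos, against 3.48 FPKM in siCtrl zygotes, a rise of 4.64. Psmb8 and Psmb9, whose products make peptides for MHC class I, were listed at 0 in the same 2-cell libraries. Over the 6 KD comparisons, 5 of 362 tests of these genes passed, namely Gps1 in Mlx KD and in Rfx1 KD zygotes, Nsfl1c in Mlx KD zygotes, and Nfyb and Rps27a in Rfx1 KD 2-cell embryos. Over all genes, 1.07% were higher and 0.434% lower in Mlx KD zygotes, 0.044% and 0.011% in Rfx1 KD zygotes, and 1.52% and 1.57% in Rfx1 KD 2-cell embryos.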

How the data were processed

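The authors deposited 1 transcript table per library, in which StringTie (1.3.3b per the file headers, 1.3.4 in the processing notes) gave FPKM and coverage for RefSeq transcripts on mm9 after alignment with STAR 2.5.2b. The library kit does not mark strand. Labels give 14 and 36 hpf, and the study's methods later times. FPKM were summed per gene (976 unnamed transcripts left out, 0.61% to 1.48% of FPKM) and divided by median-ratio factors from the 4148 genes at 1 FPKM or more in all 23 libraries. Tests used limma 3.58.1 with a variance trend in R 4.3.3 on log2 of FPKM + 1, for genes with a mean of at least 1 in the groups compared. They were also run on data simulated for the siCtrl stage comparison and Rfx1 KD 2-cell embryos only. That simulation had independent noise per gene, and its outcome is not given here. Promoters were read from the mm9 genome, where 99.4% of 464 introns of the members began with GT and ended with AG. Members and lists were chosen with earlier results of these data known. The counts of 1 list are not reported here. Values per library are given for the largest changes that passed in each comparison, the active-site subunits, activators and extremes of the mean. Alternatives were the pseudocount, filter, rescaling, all groups in 1 fit, a replicate block, voom on fragments estimated from coverage, removal of the length trend and each library left out. Depth is known only as aligned bases estimated from coverage.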

Additional observations from a re-analysis of the deposited data

Results flagged for a closer look

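For 7 proteasome genes the difference between 2-cell embryos and zygotes differed between a KD and siCtrl in a test of that difference itself (limma, log2 scale). Of the genes tested, 2 of 42 were higher after Mlx KD, against 0.196% of all genes (1.03% lower). After Rfx1 KD, 2 of 41 were higher and 3 lower, against 3.15% and 6.8% of all genes. The proteasome shares after Rfx1 KD were thus near those of all genes. After Mlx KD, the stage difference exceeded that of siCtrl by 3.04 for Psmg3, a chaperone of the alpha ring (adjusted p = 0.00942), and by 2.1 for Psmb6, an active-site subunit (adjusted p = 0.0312). After Rfx1 KD, it exceeded that of siCtrl by 2.26 for Psmd4, a ubiquitin receptor (adjusted p = 0.00348), and by 2.63 for Psme4, an activator (adjusted p = 0.0325). It lay below that of siCtrl, at −2.51 for Psmd1 (adjusted p = 0.00643), −3.27 for Psmc2 (adjusted p = 0.0379) and −1.68 for Psmg1 (adjusted p = 0.0280). Psmg1 was listed at 0 in all siRfx1 2-cell libraries. Over the alternatives, Psmd1 and Psmd4 kept their calls in all 20, and Psmg3 lost its call in 2 of 20. Psmb6 and Psmg1 lost theirs in 10 of 20, Psme4 in 9 of 20 and Psmc2 in 12 of 19.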

How the results depend on the processing

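In the 207 alternatives run on counts of proteasome genes that passed, 151 stayed within 1.5 times the count reported. Of 1622 alternatives run on single named genes, 1413 kept their call, 208 kept the direction but lost the call, and 1 turned, namely Psmg3 in the siCtrl stage comparison at −0.072 with the length trend removed. In Mlx KD zygotes, 4 calls became 1 without a filter, 7 with a filter at 5, 0 with all groups in 1 fit, 9 with voom and 2 with the length trend removed. Over all genes tested, 14 were higher and 6 lower of 14956 without a filter, and 228 and 133 of 5793 with the filter at 5. All groups in 1 fit gave 4 and 0 of 10799, voom 324 and 152 of 9212, and the length trend removed 48 and 54 of 9212. In Etv5 KD 2-cell embryos, 1 call became 0 when the pseudocount was 0.1, when no filter was used, under rescaling within the comparison, with all groups in 1 fit and with voom. In Rfx1 KD 2-cell embryos, 1 call became 4 with FPKM as deposited and 15 with all groups in 1 fit. Over all genes tested, 149 were higher and 1195 lower of 10497 with FPKM as deposited. With all groups in 1 fit, 957 were higher and 2363 lower of 10799. For the Mlx KD stage difference, 2 calls became 0 with all groups in 1 fit and with voom. The cause was not tested. With FPKM as deposited, the median over all genes moved to 0.52 in the siCtrl stage comparison, against 0.11 after rescaling, and to −0.85 in Rfx1 KD 2-cell embryos, against −0.39. With 1 library left out, the counts ranged over 0 to 1 in Etv5 KD zygotes, 0 to 10 in Mlx KD zygotes, 0 to 1 in Rfx1 KD zygotes, 0 to 0 in Etv5 KD, 0 to 3 in Mlx KD and 0 to 3 in Rfx1 KD 2-cell embryos, 25 to 30, 12 to 24, 20 to 25 and 12 to 23 for the stages in siCtrl, siEtv5, siMlx and siRfx1, and 0 to 1, 1 to 3 and 2 to 9 for the stage differences after Etv5, Mlx and Rfx1 KD. Where this left a group with 1 library, that library was assumed to vary like the others.

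Replicate numbers were not shown to pair libraries. Same-numbered libraries correlated at −0.145 to 0.351 in their deviations, and in 3 of 10 comparisons every library correlated best with its own number. With the replicate block, Etv5 KD 2-cell embryos gave 0 calls in place of 1 and the Rfx1 KD stage difference 3 in place of 5, and the other counts stayed within 1.5 times. Depth limits most the siRfx1 2-cell libraries, with 119 to 174 Mb aligned.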
